A study of Dorcoceras hygrometricum with 51 samples.

Results

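The genes described here encode the histones of Boea hygrometrica and the enzymes that add or remove acetyl groups and that add methyl groups on them. A gene was taken as a member where its product name, or the first database hit in its annotation, named histone H1, H2A, H2B, H3 or H4, a histone deacetylase, a histone acetyltransferase or a histone-lysine N-methyltransferase. This text rule found 85 of the 26693 annotated genes, 45 through the product name and 79 through the hit, with 39 found by both. They comprised 19 histone genes (4 H1, 6 H2A, 6 H2B, 2 H3 and 1 whose class was not given), 12 deacetylases, 3 genes for SAP18, a subunit of a deacetylase complex, 8 acetyltransferases and 43 lysine methyltransferases. No gene was found as H4. For 27 members the product name was only "hypothetical protein", so the name rests on sequence similarity to genes of other plants. Of the 85 members, 79 reached 1 FPKM (mapped fragments relative to transcript length and library size) in at least 3 of the 39 libraries and were tested, among 18736 tested genes. The 6 others were KZV24435, KZV52429, G000265, KZV29601, KZV16477 and KZV48662.

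In a nucleosome, DNA is wrapped around an octamer of the core histones H2A, H2B, H3 and H4, and the linker histone H1 binds where the DNA enters and leaves. Most core histone genes are expressed during DNA replication, whereas replacement variants such as H3.3 and H2A.Z are made throughout the cell cycle, and plant histone mRNAs carry a poly(A) tail. Acetylation of histone tails generally goes with transcribed genes, methylation of H3 at lysine 4 or 36 also, and methylation at lysine 9 or 27 with silenced ones. Such marks are widely studied in plants as carriers of a memory of earlier stress.

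Boea hygrometrica is a resurrection plant whose leaves survive drying, and the study followed how a first slow drought gave seedlings tolerance to rapid drying and how that tolerance was lost again. All plants were 3-month-old seedlings at the start, raised under watered greenhouse conditions from mixed seed of an outcrossing wild population, so they were not genetically uniform. At the start there were air-dried acclimated plants (AD), acclimated plants that had been rewatered for 3 d after drought (A), plants dried slowly in soil for 14 d (SD), air-dried non-acclimated plants (FD) and fresh plants (F). After 4 weeks of further growth there were A4D, A4, F4D and F4 plants, and after 18 weeks A18D, A18, F18D and F18 plants, where the final D marks air-drying for 2 d and A or F says whether the plants had been acclimated. Acclimated plants tolerated rapid drying at the start and at 4 weeks but not at 18 weeks, and plants never acclimated did not tolerate it. Each of the 13 groups had 3 RNA libraries, each from about 45 pooled leaves of at least 15 plants, and 12 groups (all but FD) had 1 bisulfite library of pooled DNA.

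The summed FPKM per library ran between 806800 and 1063492, and 12261 to 16315 genes reached 1 FPKM. Read numbers are not part of the table, so the depth behind a value is unknown and the spread between libraries is the only error available. The libraries carried leaf transcripts: 16 leaf marker genes (photosynthesis) summed to 1070 to 19765 FPKM in dried leaves and 15159 to 165845 FPKM in hydrated ones, and markers of flowers summed to 70.4 to 263 FPKM in dried and 83.7 to 335 FPKM in hydrated leaves. Root markers (419 to 934 FPKM in dried and 394 to 963 FPKM in hydrated leaves) and seed storage genes (41.7 to 1666 FPKM and 305 to 2317 FPKM) were also present. A list of 42 genes of dividing or meristem cells summed to 102 to 248 FPKM in dried leaves and 399 to 689 FPKM in hydrated ones, without overlap. Its median gene had 0.295 FPKM in dried and 0.525 FPKM in hydrated leaves, so the sums came from its higher genes. The sums of 44 DNA replication genes (201 to 461 FPKM dried, 253 to 646 FPKM hydrated) overlapped. So did those of 19 cell division genes (52.35 to 147 FPKM dried, 89.17 to 226 FPKM hydrated). Within 3 groups 1 library stood apart most clearly for the histone genes. The second A4 library (A4 replicate 2) was the lowest of the 3 A4 libraries for 59.1% of all tested genes and for 15 of the 18 tested histone genes, so the A4 counts are given below with and without it, as are single genes whose value it moved most. F replicate 3 was the highest of the 3 F libraries for 16 of the 18 histone genes (54.8% of all tested genes) and 28 of 31 tested dividing-cell markers, and A replicate 1 the highest of the A libraries for 15 of the 18 (24.4% of all tested genes).

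The histone genes covered a wide range of levels. The H2B-like gene KZV22572 had the highest mean over the 39 libraries, 762 FPKM, followed among histone genes by the H2B gene KZV55309 with 288 FPKM and the H2A-like gene KZV40648 with 191 FPKM. KZV24629 was the highest H1 gene with 158 FPKM, and KZV50471, which encodes the replacement histone H3.3, averaged 78.2 FPKM. The lowest tested H2A and H1 genes, KZV17046 and KZV46512, averaged 3.27 and 2.69 FPKM. Several of these genes are close copies of each other, and how the estimator divided reads among near-identical sequences cannot be seen in the table, so the level of a single copy is less certain than the sum of a class. Summed over the 19 histone genes, AD leaves had 1415, 1777 and 1628 FPKM, against 3994, 1928 and 2615 FPKM in A leaves. The corresponding sums were 1154, 1364 and 1340.3 FPKM in FD leaves and 2183, 2242 and 3452 FPKM in F leaves. In all 7 drying comparisons every dried library had a lower sum than every hydrated library it was set against. These sums are of FPKM as deposited. The median-ratio size factors of the libraries were 0.88, 0.88 and 0.867 in AD leaves and 0.994, 1.092 and 1.392 in A leaves. After division by these factors the AD and A sums would overlap. In libraries from whole leaves, fewer cells of a type and less RNA per cell cannot be told apart.

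**Figure D1:**
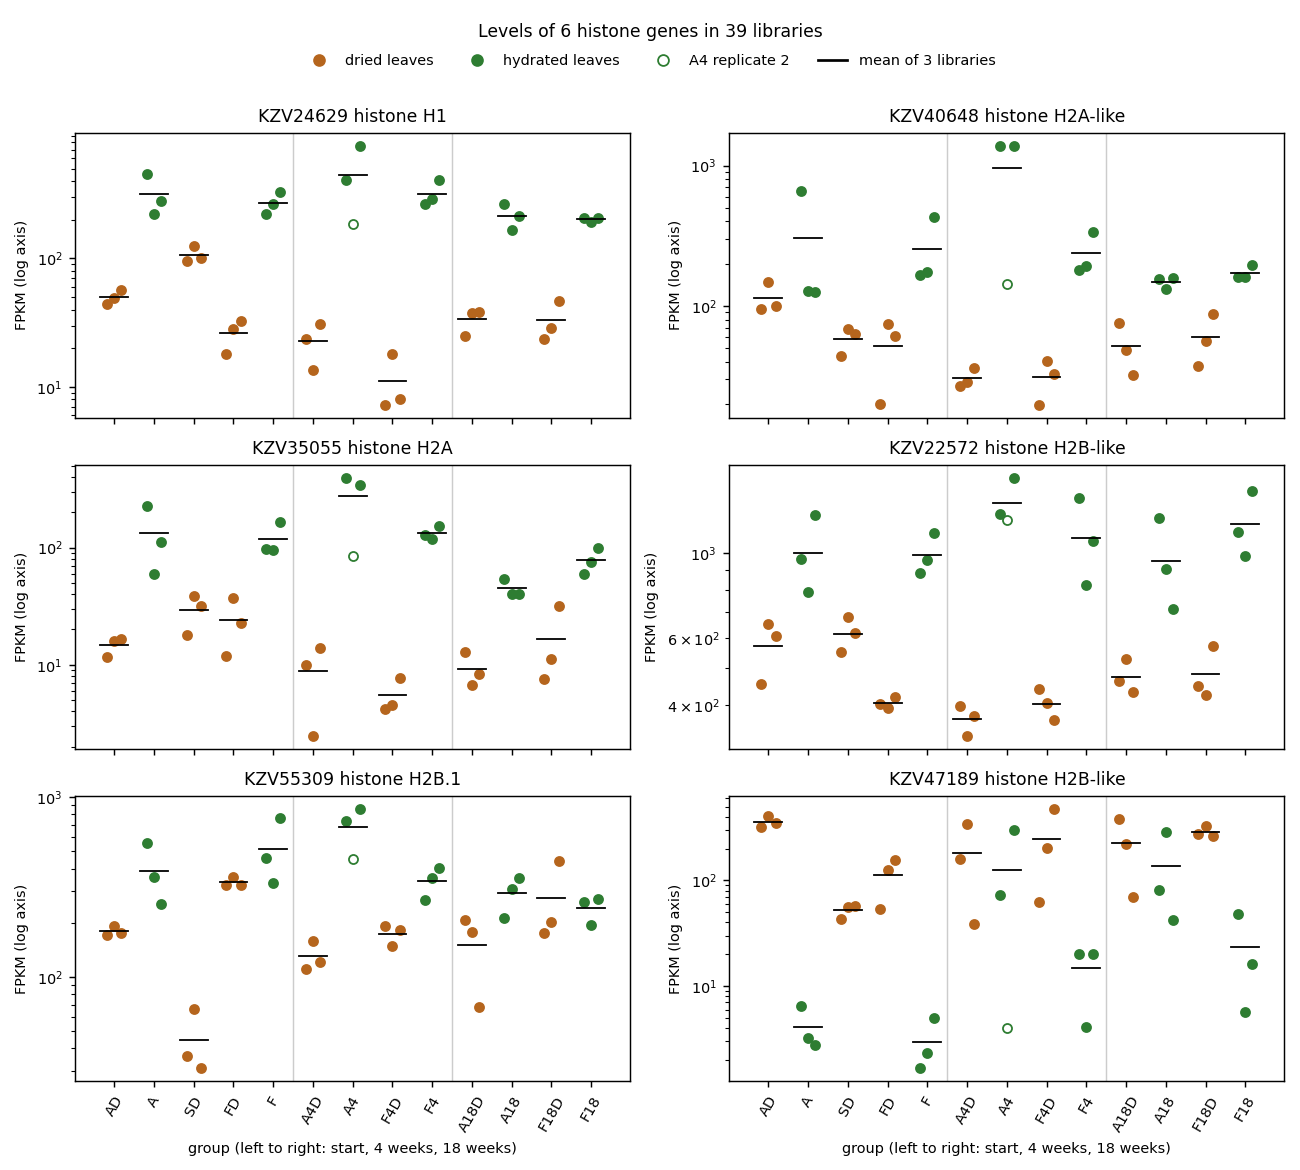
FPKM (log axis) of 6 histone genes in each of the 39 libraries, by group; brown points are dried leaves, green points hydrated leaves, the open point A4 replicate 2 and the black bar the group mean. KZV47189 reaches 324 to 405 FPKM in AD leaves and 2.76 to 6.42 FPKM in A leaves, the opposite direction to KZV24629, KZV35055 and KZV22572.

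Drying was tested in 7 comparisons, 1 slow and 6 rapid, with limma on log2(FPKM + 1), and a gene was called where the change was at least 1 on that scale at a Benjamini-Hochberg adjusted p of at most 0.05. Changes on this scale understate those of low genes. Among the 79 members, 8 rose and 12 fell in SD against F (12.9% of all tested genes rose and 22.1% fell), 2 rose and 21 fell in FD against F (background 13.2% and 29.1%), and 7 rose and 14 fell in AD against A (13.1% and 26.2%). At 4 weeks, 4 rose and 35 fell in F4D against F4 (10.4% and 35.9%), and 2 rose and 33 fell in A4D against A4 (10.4% and 35.5%). At 18 weeks, 2 rose and 23 fell in F18D against F18 (6.13% and 30.2%), and 1 rose and 18 fell in A18D against A18 (6.43% and 20.6%). As shares of the 79, the falling members were 15.2%, 26.6%, 17.7%, 44.3%, 41.8%, 29.1% and 22.8% in that order, so they lay within 9 percentage points of the background in each comparison.

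These counts depend on how the libraries were scaled to each other. FPKM is relative to library size, so the value of a gene depends on the other genes of its library. Under drying the median of all tested genes lay below 0, between -0.14 in SD against F and -0.67 in F4D against F4. After median-ratio scaling 9 members rose and 11 fell in SD against F (13.9% and 19.9% of all tested genes), 6 and 13 in FD against F (16.9% and 21.5%), and 10 and 8 in AD against A (17.5% and 20.2%). Likewise 5 rose and 14 fell in F4D against F4 (19.0% and 20.9%) and 8 and 22 in A4D against A4 (18.5% and 22.8%). At 18 weeks 2 rose and 4 fell in F18D against F18 (10.9% and 9.67%), and 5 and 4 in A18D against A18 (11.5% and 9.67%). The all-gene medians were then between -0.18 and -0.02. The direction in which more members moved was thus turned in AD against A and in A18D against A18, while the median over the 79 members stayed at or below 0 in all 6 rapid dryings and was 0.16 in SD against F. Changes below are given on the unscaled values, and the calls that scaling ended are named at the end of each gene class.

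Counted over the histone genes alone, falls were more numerous relative to rises. Of the 18 tested, 6 fell and 2 rose in SD against F, 7 fell and 1 rose in FD against F, and 6 fell and 1 rose in AD against A. In F4D against F4, 12 fell and 1 rose, in A4D against A4 13 fell and none rose, in F18D against F18 8 fell and 1 rose, and in A18D against A18 9 fell and none rose. Of all tested genes 22.1%, 29.1%, 26.2%, 35.9%, 35.5%, 30.2% and 20.6% fell in these 7 comparisons. Among the histone genes the falling share was 33.3%, 38.9%, 33.3%, 66.7%, 72.2%, 44.4% and 50% in the same order. Their median change was -0.79, -0.64, -1.004, -1.55, -2.56, -1.22 and -1.06 in the same order, and after scaling it was -0.69, -0.42, -0.62, -0.82, -1.89, -0.45 and -0.48. Scaling left 6, 5, 4, 6, 13, 3 and 3 of the 18 histone genes as falling. Of all tested genes 19.9%, 21.5%, 20.2%, 20.9%, 22.8%, 9.67% and 9.67% fell after scaling, so the histone count in AD against A was then near the background. Without F replicate 3, 4 histone genes fell and 2 rose in SD against F (19.0% and 14.1% of all tested genes), with a median of -0.59, and 7 fell and 1 rose in FD against F (25.0% and 13.5%). Without A replicate 1, 4 fell and 1 rose in AD against A (27.2% and 11.7%), with a median of -0.53. Of the 31 tested dividing-cell markers, 25.8% fell in SD against F, 25.8% in FD against F, 25.8% in AD against A, 41.9% in F4D against F4, 74.2% in A4D against A4, 25.8% in F18D against F18 and 22.6% in A18D against A18, which were within 7 percentage points of all tested genes except in A4D against A4. Their part in the histone result was not tested.

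**Figure D2:**
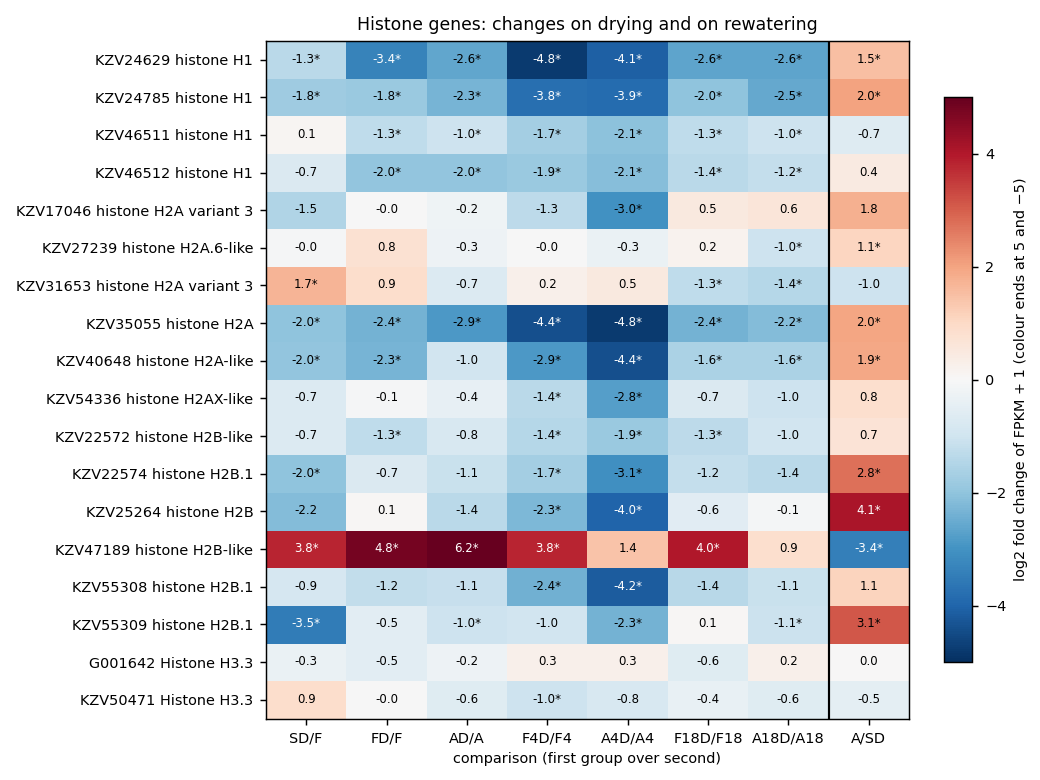
Log2 change of FPKM + 1 for the 18 tested histone genes in the 7 drying comparisons and in A against SD (right of the line); red is higher and blue lower in the first-named group, and a star marks a call. The top 2 H1 genes and KZV35055 fall in all 7 dryings, and KZV47189 is the gene with the deepest red, 6.19 in AD against A.

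The linker histone genes fell most regularly. All 4 H1 genes fell in all 6 rapid dryings, and 2 of them also in SD against F. Summed over the 4 genes, AD leaves had 83.6, 91.0 and 97.8 FPKM, against 649.5, 325 and 425 FPKM in A leaves, and FD leaves had 65.7, 80.0 and 87.1 FPKM, against 342, 421 and 530.1 FPKM in F leaves. The dried and hydrated libraries did not overlap in either pair. KZV24629 (KV012567.1, positions 26878 to 27850) carried most of this sum. It had 17.9, 28.2 and 32.4 FPKM in FD leaves, against 222, 267 and 328 FPKM in F leaves, a log2 change of -3.35 ± 0.38 (SE, n = 3 each, limma adjusted p = 1.2e-08). SD leaves, at 94.8, 124 and 100.3 FPKM, lay between these without overlap with either, with a change of -1.34 ± 0.38 (adjusted p = 0.0047) against F. The deepest fall of KZV24629 was in F4D leaves, with 7.28, 18.2 and 8.10 FPKM, against 265, 289.9 and 405 FPKM in F4 leaves, a change of -4.80 ± 0.38. KZV24785, another H1 gene, had 17.0, 24.4 and 24.7 FPKM in SD leaves, against 53.7, 89.8 and 97.0 FPKM in F leaves, a change of -1.79 ± 0.50. These changes held without any single library.

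The remaining H1 genes, KZV46511 and KZV46512, lie next to each other on KQ995661.1, 1369 bp apart (393848 to 394977 and 396346 to 399115). KZV46511 had 61.6, 113 and 64.9 FPKM in SD leaves and 62.8, 59.7 and 99.0 FPKM in F leaves, which overlapped, and its change of 0.09 was not called (adjusted p = 0.85). In FD leaves it fell to 29.6, 25.6 and 33.9 FPKM, a change of -1.26 ± 0.31 against F. Its calls in AD against A (-1.04) and A18D against A18 (-1.03) were lost when single libraries were left out (A replicate 1 or 3, with -0.86 and -0.94, and A18 replicate 1, A18D replicate 2 or A18D replicate 3, with -0.84, -0.90 and -0.99). KZV46512 fell by 1.19 to 2.12 on the log2 scale in the rapid dryings from a low level. Scaling ended the calls of KZV46511 except in A4D against A4 and those of KZV46512 at 18 weeks, and none of KZV24629 or KZV24785.

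H2A pairs with H2B in the nucleosome core, and the 6 H2A genes did not move as 1 group. KZV35055 (H2A, KV005005.1, 142297 to 143246) fell in all 7 dryings. It had 18.0, 38.7 and 31.9 FPKM in SD leaves and 12.0, 37.1 and 22.8 FPKM in FD leaves, against 97.6, 94.7 and 166 FPKM in F leaves. AD leaves had 11.6, 16.1 and 16.7 FPKM, against 228, 59.1 and 111 FPKM in A leaves. In each of these the dried libraries lay below all hydrated ones, with changes of -1.996 ± 0.54 (SD against F, limma adjusted p = 0.0035), -2.36 ± 0.54 (FD against F) and -2.89 ± 0.54 (AD against A). KZV40648, the highest H2A gene, had 44.0, 68.8 and 62.8 FPKM in SD leaves, against 165, 173 and 431 FPKM in F leaves, a change of -1.99 ± 0.62 that was lost without F replicate 3 (-1.54). In F4D leaves it had 19.8, 40.8 and 33.0 FPKM, against 179.7, 193 and 338 FPKM in F4 leaves, a change of -2.88 ± 0.62. In AD against A the same gene was not called (-0.96), with AD at 95.2, 147 and 101 FPKM and A at 659, 128 and 125 FPKM, where the groups overlapped and A replicate 1 stood above the rest.

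H2A.Z replaces H2A in chosen nucleosomes, in Arabidopsis among them those at genes that respond to the environment, and KZV31653 and KZV17046 carry the annotation H2A variant 3, a name used for an H2A.Z. KZV31653 rose in SD leaves, with 30.5, 25.5 and 20.6 FPKM, against 6.77, 5.47 and 9.70 FPKM in F leaves, a change of 1.69 ± 0.49 (limma adjusted p = 0.0058) without overlap. It was also higher in F18 leaves, with 37.3, 51.4 and 24.3 FPKM, against the same F libraries, a change of 2.19 ± 0.49 (adjusted p = 0.0013). Its falls in F18D against F18 (-1.26) and A18D against A18 (-1.43) were each lost when any 1 of 4 libraries was left out, with values between -0.82 and -1.28 in F18D against F18 and between -1.32 and -1.41 in A18D against A18. KZV17046 was listed at 0 in all 3 SD libraries. KZV54336, annotated as H2AX-like, the variant that is phosphorylated at DNA breaks, was called in A4D against A4 (-2.77, and -3.65 without A4 replicate 2) and, narrowly, in F4D against F4 (-1.36, adjusted p = 0.049, lost when any 1 library of the comparison was left out, -1.09 to -1.53). The H2A.6-like gene KZV27239 had 1 drying call, in A18D against A18 (-1.05, adjusted p = 0.046), which 5 of 6 single omissions ended. Scaling ended the 18-week calls of KZV40648, KZV31653 and KZV27239 and the F4D against F4 call of KZV54336, and none of KZV35055. After scaling KZV31653 was also called up in FD against F (1.24) and A4D against A4 (1.25), and KZV27239 in FD against F (1.15).

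Among the 6 H2B genes, 1 moved against the rest. KZV47189 (KQ995304.1, 254182 to 254907) rose in 5 of the 7 dryings. AD leaves had 324, 405 and 350.3 FPKM, against 6.42, 3.24 and 2.76 FPKM in A leaves, a change of 6.19 ± 0.98 (limma adjusted p = 4.9e-06). SD leaves had 43.5, 56.1 and 57.1 FPKM and FD leaves 53.1, 126 and 157 FPKM, against 1.68, 2.30 and 4.95 FPKM in F leaves, changes of 3.82 ± 0.98 and 4.78 ± 0.98. In these 3 comparisons no library of one group overlapped the other, and the calls held without any single library and after scaling. F18D leaves had 276, 326 and 263 FPKM, against 47.7, 5.74 and 16.1 FPKM in F18 leaves (4.02 ± 0.98), and F4D leaves had 62.3, 203 and 472 FPKM, against 20.1, 4.08 and 20.1 FPKM in F4 leaves (3.80 ± 0.98). The gene was not called in A4D against A4 (1.42) or A18D against A18 (0.86), where hydrated libraries reached 302 and 286 FPKM and the groups overlapped. Without A4 replicate 2 its value in A4D against A4 was -0.21. Rewatering reversed the slow-drying change: A leaves had 3.43 less on the log2 scale than SD leaves (adjusted p = 0.0055).

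KZV55309 (H2B.1, KQ988979.1, 369485 to 369913) fell in SD leaves to 36.4, 66.0 and 31.1 FPKM, against 459, 331 and 761 FPKM in F leaves, a change of -3.50 ± 0.38 (limma adjusted p = 8.8e-09). FD leaves, which were dried rapidly, had 323, 359.6 and 323 FPKM and overlapped the F libraries (-0.54, not called). The difference between slow and rapid drying was not itself tested. After rewatering it was higher in A than in SD leaves by 3.10 ± 0.38 (adjusted p = 8.2e-08). Its neighbour KZV55308, 3332 bp away with no gene between, had 29.97, 35.2 and 45.3 FPKM in SD leaves and 47.5, 55.2 and 111 FPKM in F leaves, which did not overlap but gave no call (-0.85). KZV22572, the highest histone gene (KV014357.1, 69326 to 69766), fell in 4 dryings, with 403, 393 and 420.4 FPKM in FD leaves, against 885, 957 and 1126 FPKM in F leaves (-1.28 ± 0.23, adjusted p = 3.5e-05). KZV22574, 3648 bp from it, fell in SD against F (-2.005), a call lost without F replicate 3 (-1.63) or SD replicate 1 (-1.64), and was higher in A than in SD leaves by 2.76 ± 0.63. KZV25264 had 116, 16.7 and 12.5 FPKM in A leaves, against 0.48, 0.86 and 1.03 FPKM in SD leaves (4.10 ± 0.94, adjusted p = 0.00072), with A replicate 1 far above the other 2. That library was the highest of the 3 A libraries in 83.3% of the tested histone genes, against 24.4% of all tested genes, and in 15 of 19 tested cell division genes. Scaling ended the calls of KZV22572 in all its dryings but A4D against A4, those of KZV22574 and KZV25264 in F4D against F4, and those of KZV55309 in AD against A and A18D against A18. After scaling KZV47189 was called up in A4D against A4 (2.23) with all 3 A4 libraries, a comparison whose unscaled value turned below 0 without A4 replicate 2.

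The H3.3 gene KZV50471 had 138, 145 and 143 FPKM in SD leaves, against 79.8, 66.1 and 84.0 FPKM in F leaves, which did not overlap, but its change of 0.89 was below the threshold. It fell in F4D leaves (35.95, 42.6 and 35.97 FPKM, against 99.9, 53.6 and 90.7 FPKM in F4 leaves, -1.03 ± 0.25), and that call was lost without F4 replicate 1 (-0.86), F4 replicate 3 (-0.93), F4D replicate 1 (-0.99) or F4D replicate 3 (-0.99), and after scaling (-0.13). The other H3.3 gene, G001642, was called in none of the dryings.

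The 61 tested enzyme and SAP18 genes moved in both directions under slow drying, 6 up and 6 down in SD against F, with a median of 0.26. Under rapid drying falls outnumbered rises, as they did among all tested genes: 14 fell and 1 rose in FD against F, 8 and 6 in AD against A, 23 and 3 in F4D against F4, 20 and 2 in A4D against A4, 15 and 1 in F18D against F18, and 9 and 1 in A18D against A18. The falling shares of the 61 were 23.0%, 13.1%, 37.7%, 32.8%, 24.6% and 14.8% in these 6, against 29.1%, 26.2%, 35.9%, 35.5%, 30.2% and 20.6% of all tested genes. Without A4 replicate 2, 32 fell and 2 rose in A4D against A4. After scaling the falls and rises were 8 and 3, 4 and 9, 8 and 4, 9 and 6, 1 and 1, and 1 and 5 in that order. In AD against A and A18D against A18 the more frequent direction was thus turned by the scaling. Of all tested genes 21.5%, 20.2%, 20.9%, 22.8%, 9.67% and 9.67% fell after scaling in these 6 comparisons. The shares that rose were 16.9%, 17.5%, 19.0%, 18.5%, 10.9% and 11.5%.

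**Figure D3:**
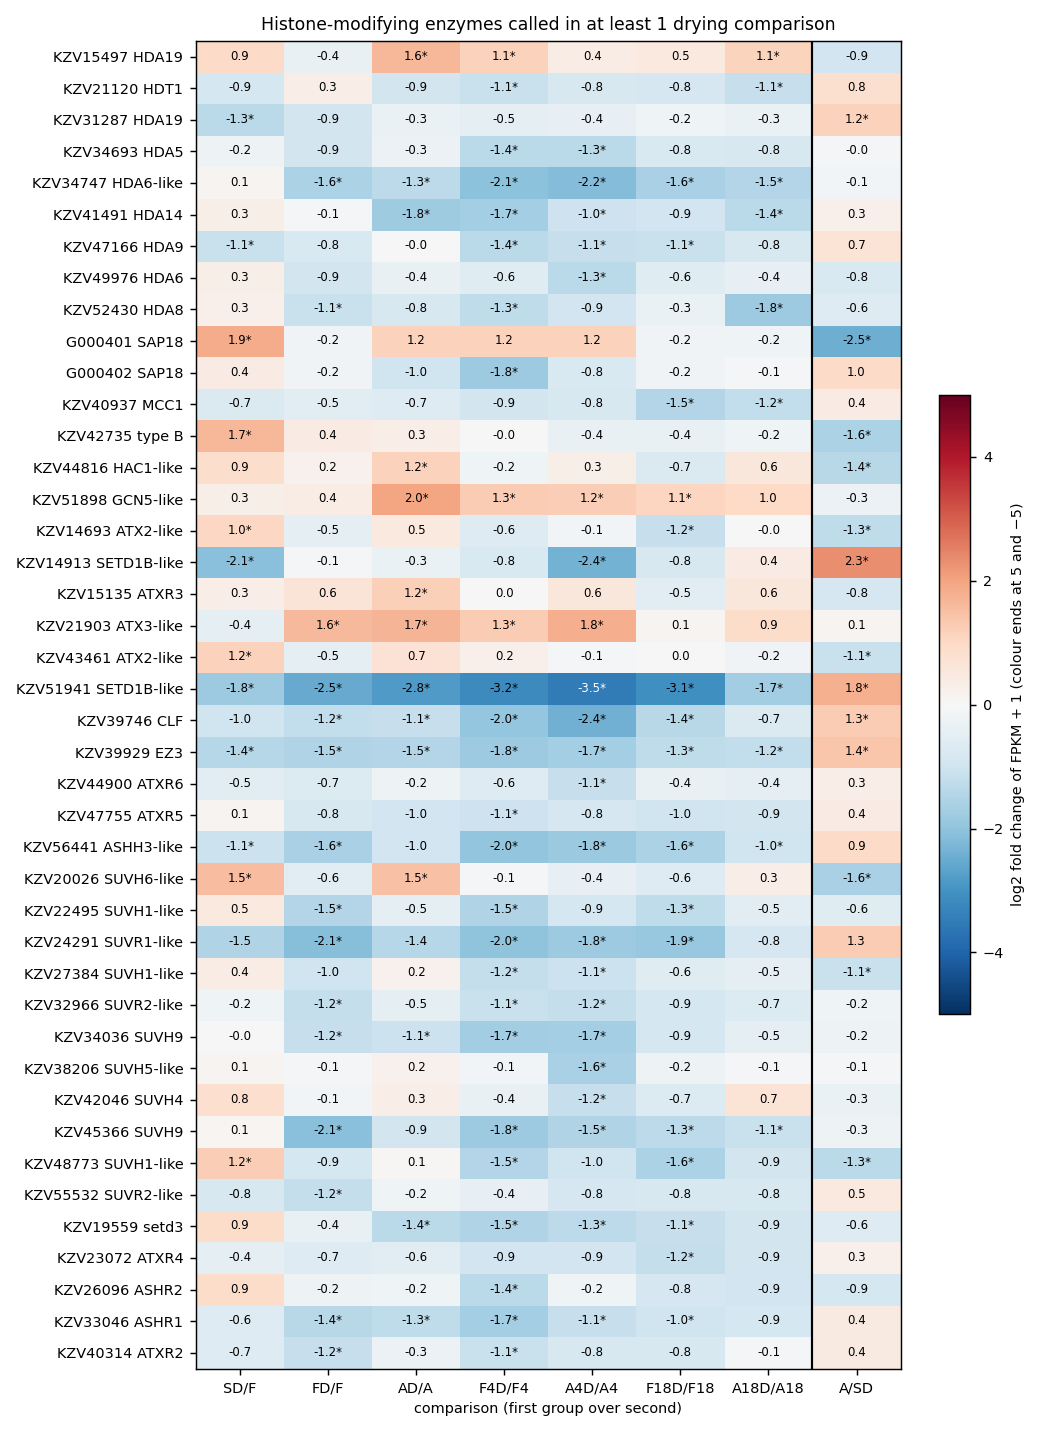
Log2 change of FPKM + 1 for the 42 deacetylase, SAP18, acetyltransferase and methyltransferase genes called in at least 1 drying comparison, with A against SD right of the line; red is higher and blue lower in the first-named group, and a star marks a call. KZV39929 and KZV51941 are blue with a star in all 7 dryings, and KZV34747 in the 6 rapid ones.

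Deacetylases remove acetyl groups from histone tails, and of the 11 tested 2 fell in SD against F, 2 in FD against F, 2 in AD against A, 6 in F4D against F4, 5 in A4D against A4, 2 in F18D against F18 and 4 in A18D against A18. Of all tested genes 22.1%, 29.1%, 26.2%, 35.9%, 35.5%, 30.2% and 20.6% fell in that order. KZV34747, annotated as HDA6-like after the Arabidopsis enzyme that acts in gene silencing, fell in the 6 rapid dryings and not in the slow one. It had 14.6, 11.7 and 12.0 FPKM in FD leaves, against 34.7, 43.2 and 41.4 FPKM in F leaves, a change of -1.57 ± 0.21 (limma adjusted p = 4.4e-07). SD leaves had 50.05, 36.9 and 44.8 FPKM, which overlapped F (0.13). In F4D leaves it had 8.47, 8.51 and 7.30 FPKM, against 44.3, 32.1 and 34.8 FPKM in F4 leaves (-2.05 ± 0.21, adjusted p = 2.9e-09). Scaling ended its calls in AD against A (-0.95), F18D against F18 (-0.83) and A18D against A18 (-0.91). KZV52430, HDA8, had 10.6, 5.29 and 8.68 FPKM in A18D leaves, against 30.1, 47.4 and 19.9 FPKM in A18 leaves (-1.83 ± 0.42, adjusted p = 0.001), without overlap. Its falls in FD against F (-1.10) and F4D against F4 (-1.29) were lost without F replicate 2 (-0.68), FD replicate 2 (-0.84), F4 replicate 1 (-0.91) or F4D replicate 1 (-1.02), and after scaling (-0.73 and -0.45). KZV31287, one of the genes annotated as HDA19, was at 0.91, 0.65 and 1.11 FPKM in SD leaves, against 3.99, 3.48 and 3.84 FPKM in F leaves (-1.34 ± 0.30). KZV31342, also annotated as HDA19 and the highest deacetylase with a mean of 79.9 FPKM, was called in none of the dryings. Of the SAP18 genes, G000401 rose in SD leaves, with 20.2, 21.7 and 9.64 FPKM, against 4.30, 1.5 and 7.08 FPKM in F leaves (1.86 ± 0.57), a call lost without F replicate 2 (1.40).

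Acetyltransferases add these groups. Of 8 tested, none fell in SD against F, FD against F, AD against A, F4D against F4 or A4D against A4. Of all tested genes 22.1%, 29.1%, 26.2%, 35.9% and 35.5% fell in that order, and with 8 genes the difference was not tested. Without A4 replicate 2, 2 of the 8 fell in A4D against A4 (42.2% of all tested genes). KZV42735, the type B acetyltransferase, which acetylates newly made histones before they enter chromatin, rose in SD leaves to 12.9, 12.5 and 13.7 FPKM, against 2.78, 2.69 and 5.10 FPKM in F leaves (1.68 ± 0.32, limma adjusted p = 7.2e-05). A leaves had 3.40, 2.77 and 5.20 FPKM, again below all SD libraries (-1.59 ± 0.32 in A against SD). KZV51898, GCN5-like after an acetyltransferase of transcriptional coactivator complexes, had 2.75, 2.61 and 3.55 FPKM in AD leaves and was listed at 0 in all 3 A and all 3 F libraries, so no fold is given. KZV40937, annotated as MCC1, fell in F18D leaves to 15.6, 14.2 and 17.3 FPKM, against 46.7, 46.1 and 41.1 FPKM in F18 leaves (-1.45 ± 0.24), a call that scaling ended (-0.67). The MYST-type gene KZV40913, the highest acetyltransferase with a mean of 36.6 FPKM, was not called in any drying on the unscaled values. After scaling it was called up in FD against F (1.33), where FD leaves had 63.2, 50.2 and 54.2 FPKM, against 24.6, 28.5 and 32.8 FPKM in F leaves, without overlap.

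The 39 tested methyltransferases gave 4 rises and 4 falls in SD against F, 1 and 12 in FD against F, 3 and 6 in AD against A, 1 and 16 in F4D against F4, 1 and 15 in A4D against A4, 0 and 12 in F18D against F18, and 0 and 4 in A18D against A18. Of all tested genes 12.9%, 13.2%, 13.1%, 10.4%, 10.4%, 6.13% and 6.43% rose in that order. The shares that fell were 22.1%, 29.1%, 26.2%, 35.9%, 35.5%, 30.2% and 20.6%. Those of the H3K27 type include the catalytic subunits of Polycomb complex PRC2. KZV39929, annotated as EZ3, an Enhancer of zeste type subunit, fell in all 7 dryings by 1.25 to 1.81 on the log2 scale. It had 5.46, 2.57 and 4.91 FPKM in SD leaves and 3.92, 4.47 and 3.34 FPKM in FD leaves, against 14.1, 11.4 and 13.2 FPKM in F leaves, without overlap. Its change was -1.43 ± 0.34 (SD against F, limma adjusted p = 0.00094) and -1.505 ± 0.34 (FD against F), and the call in A18D against A18 was lost without A18D replicate 3 (-0.99), and both 18-week calls after scaling. KZV39746, annotated as CLF, had 2.70, 3.70 and 4.55 FPKM in FD leaves, against 10.0, 7.31 and 12.1 FPKM in F leaves (-1.21 ± 0.34), a call that scaling ended. It fell in 4 further rapid dryings, of which AD against A (-1.14) was lost without A replicate 3 (-0.93), and its calls in AD against A and F18D against F18 ended with scaling.

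Of the 11 H3K4-type genes, KZV21903, annotated as ATX3-like, rose in 4 of the 6 rapid dryings. It had 25.8, 21.0 and 29.9 FPKM in FD leaves, against 8.80, 5.86 and 8.58 FPKM in F leaves (1.61 ± 0.46, limma adjusted p = 0.0046), and 18.6, 24.1 and 23.4 FPKM in AD leaves, against 4.04, 9.33 and 5.46 FPKM in A leaves (1.72 ± 0.46). Both pairs were without overlap, and the rise in F4D against F4 (1.26) was lost without F4 replicate 1 (1.02), F4D replicate 2 (1.06) or F4D replicate 3 (0.96). KZV14693, ATX2-like, rose in SD leaves to 30.2, 20.4 and 20.5 FPKM, against 11.9, 9.07 and 12.0 FPKM in F leaves (1.03 ± 0.29), but without F replicate 2 (0.91) or SD replicate 1 (0.85) it was below the threshold. KZV51941, SETD1B-like, fell in all 7 dryings, with calls in SD against F (-1.83) and A18D against A18 (-1.72) that were each lost when any 1 of 4 libraries was left out (-1.38 to -1.85 and -1.36 to -1.76). KZV14913 had 0.35, 0.32 and 0.38 FPKM in SD leaves, against 3.04, 5.32 and 6.65 FPKM in F leaves (-2.10 ± 0.50, adjusted p = 0.0011). The naming of some of these genes is weak. KZV51941 and KZV14913 have no KEGG orthology entry, and the first hit of KZV14913 is an uncharacterized protein. The KEGG entry of the ATX2-like gene KZV19229 is the DNA mismatch repair protein MSH6.

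H3K9 methylation marks silenced repeats and works together with DNA methylation in plants. Of the 13 tested genes of this type, 2 rose and none fell in SD against F. In the rapid dryings 6 fell in FD against F (46.2%, against 29.1% of all tested genes), 7 in F4D against F4 (53.8%, against 35.9%), 7 in A4D against A4 (53.8%, against 35.5%), 4 in F18D against F18 (30.8%, against 30.2%), and 1 each in AD against A and A18D against A18 (7.69%, against 26.2% and 20.6%). The difference between slow and rapid drying was not tested. KZV48773, SUVH1-like, had 22.7, 26.1 and 26.9 FPKM in SD leaves, against 8.65, 9.02 and 13.6 FPKM in F leaves (1.22 ± 0.26, limma adjusted p = 0.00035). It fell in F18D leaves to 4.89, 8.40 and 6.88 FPKM, against 19.8, 23.7 and 21.3 FPKM in F18 leaves (-1.57 ± 0.26). KZV45366, annotated as SUVH9, whose Arabidopsis counterpart binds methylated DNA in RNA-directed DNA methylation, had 2.17, 0.80 and 1.84 FPKM in FD leaves, against 8.53, 8.48 and 12.9 FPKM in F leaves (-2.09 ± 0.28, adjusted p = 3.9e-07). KZV24291, annotated as SUVR1, had 2.69, 1.35 and 2.06 FPKM in FD leaves, against 15.5, 7.56 and 15.2 FPKM in F leaves (-2.14 ± 0.63). Scaling ended the 18-week calls of KZV48773, KZV45366 and KZV24291 and the 4-week call of KZV48773, and also that of KZV45366 in A4D against A4. Of the 6 tested H3K36-type genes, KZV56441 (ASHH3) fell in 6 of the 7 dryings, AD against A being the exception. It fell by 1.99 in F4D against F4, its call in SD against F (-1.08) was lost after scaling or without SD replicate 2 (-0.93) or SD replicate 3 (-0.99), and that in A18D against A18 (-1.01) when any 1 of 4 libraries was left out (-0.67 to -1.03), and its calls at 18 weeks ended with scaling.

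Counted per member, 5 of the 79 fell in all 7 dryings (6.6% of all tested genes did), and these were the H1 genes KZV24629 and KZV24785, the H2A gene KZV35055 and the methyltransferases KZV39929 and KZV51941. In all 6 rapid dryings 8 fell (10.5% of all tested genes). In 20 members no drying gave a call, 10 were only ever called up, and KZV31653, KZV48773 and KZV14693 rose under slow drying and fell in a rapid one. The matching shares of all tested genes were not counted, so these numbers only describe the members. SD and FD were compared with the same F libraries, so the values of those comparisons are not independent.

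Rewatering after slow drying, A against SD, is the step in which acclimation was completed. In it 13 members rose and 12 fell (20.4% of all tested genes rose and 14.5% fell), and the same numbers were called after scaling (20.2% and 13.6% of all tested genes). Of the 18 histone genes 8 rose and 1 fell, with a median of 1.10 against 0.06 for all tested genes. Without A replicate 1, the highest A library for most histone genes, 6 rose and 1 fell (19.8% and 12.1% of all tested genes), with a median of 0.73 against 0.12. The 8 were KZV24629, KZV24785, KZV35055, KZV40648, KZV27239, KZV22574, KZV25264 and KZV55309. KZV24629 had 452, 222 and 279 FPKM in A leaves, against 94.8, 124 and 100.3 FPKM in SD leaves (1.51 ± 0.38, limma adjusted p = 0.0016), and KZV35055 rose by 1.99 ± 0.54. The rise of KZV40648 (1.91) was lost without A replicate 1 (1.12) or SD replicate 1 (1.73), and that of KZV27239 (1.07) when any 1 of 4 libraries was left out (0.87 to 1.13). The enzymes gave 5 rises and 11 falls, the rises being the EZ3 and CLF genes KZV39929 (1.40) and KZV39746 (1.26, lost without SD replicate 2 at 0.92), KZV14913 (2.31), KZV51941 (1.79, lost when any 1 of 4 libraries was left out, 1.19 to 1.81) and KZV31287 (1.16). Among the falls were KZV42735, the SAP18 gene G000401 (-2.46 ± 0.57), the HAC1-like gene KZV44816 (-1.39) and 4 of the 13 H3K9-type genes. In the dividing-cell list 11 of 31 rose (35.5%) and 2 fell in the same comparison, and its part in the histone rise was not tested.

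The acclimated and never-acclimated plants were also compared while hydrated. In A against F no member was called by limma (0.0587% of all tested genes rose and 0.0587% fell), and at an unadjusted p under 0.05, 2 members were higher and 2 lower. In A4 against F4 none was called (background 0.0213% and 0.0267%), with 7 higher and 2 lower at an unadjusted p under 0.05. In A18 against F18 (2.0% rose and 5.75% fell) KZV14913 was lower, with 3.49, 1.39 and 4.45 FPKM in A18 leaves, against 20, 8.20 and 10.7 FPKM in F18 leaves (-1.76 ± 0.50, adjusted p = 0.026). The groups did not overlap. The call was lost after scaling (-1.36) and without A18 replicate 2 (-1.41), F18 replicate 1 (-1.42) or F18 replicate 3 (-1.84). At an unadjusted p under 0.05, 2 members were higher and 5 lower in A18 than in F18 leaves. The paper reports the deacetylase gene KZV52430 as significantly higher in A18 than in F18 plants. Here KZV14913 was the only member called, so KZV52430 was not. The paper used DESeq2 and the call here came from limma on log2(FPKM + 1), so the results are from unlike tests at the same thresholds. Which of them is right for KZV52430 was not tested. The mean of KZV52430 in A18 leaves, 32.5 FPKM, was its highest among the 13 groups.

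Time in culture was followed in both sets of plants. In F4 against F no member was called (0.0267% and 0.0267% of all tested genes), with 1 higher and 0 lower at an unadjusted p under 0.05, and in A4 against A none was called (0.87% and 1.21%), with 9 higher and 4 lower. In F18 against F (13.5% rose and 7.15% fell) 4 rose and 1 fell. The rises were KZV31653, the HDT1-like deacetylase KZV42623 (1.502), KZV48773 (1.01) and KZV26096, annotated as ASHR2 (1.19 ± 0.26), of which KZV31653 kept its call after scaling, and KZV55309 fell (-1.02). KZV42623, KZV55309 and KZV48773 lost their calls when any 1 of 5, 5 and 3 libraries was left out (1.10 to 1.69 for KZV42623, -0.70 to -1.11 for KZV55309 and 0.90 to 0.94 for KZV48773). In A18 against A (6.39% and 6.77%), KZV47189 rose, with 81.6, 286 and 42.1 FPKM in A18 leaves, against 6.42, 3.24 and 2.76 FPKM in A leaves (4.36 ± 0.98, limma adjusted p = 0.0024). KZV25264 fell (-3.54), with a value of -2.56 without A replicate 1 and -3.10 without A18 replicate 2 that were not called.

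Within A4 the libraries disagreed about the core histones. The histone sum was 5877, 2471 and 7316 FPKM in A4 replicates 1, 2 and 3, against 2752, 2210.3 and 3078 FPKM in F4 leaves. A4 replicate 2 was the lowest of the 3 for all 12 H2A and H2B genes, for 34 of the 39 methyltransferases and 7 of the 8 acetyltransferases. In KZV40648 the A4 libraries had 1379.6, 144 and 1379.2 FPKM, against 179.7, 193 and 338 FPKM in F4 leaves, so replicate 2 lay below all F4 libraries and the other 2 above them. KZV55308 had 565, 68.9 and 659.9 FPKM in A4 leaves. KZV54336, H2AX-like, had 187, 28.9 and 178 FPKM in A4 leaves, against 33.9, 32.9 and 59.7 FPKM in F4 leaves. The HAC1-like gene KZV44816 had 18.9, 1.71 and 13.7 FPKM in A4 leaves. A4 replicate 2 was also the lowest of the 3 for 34 of 39 tested DNA replication genes.

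**Figure D4:**
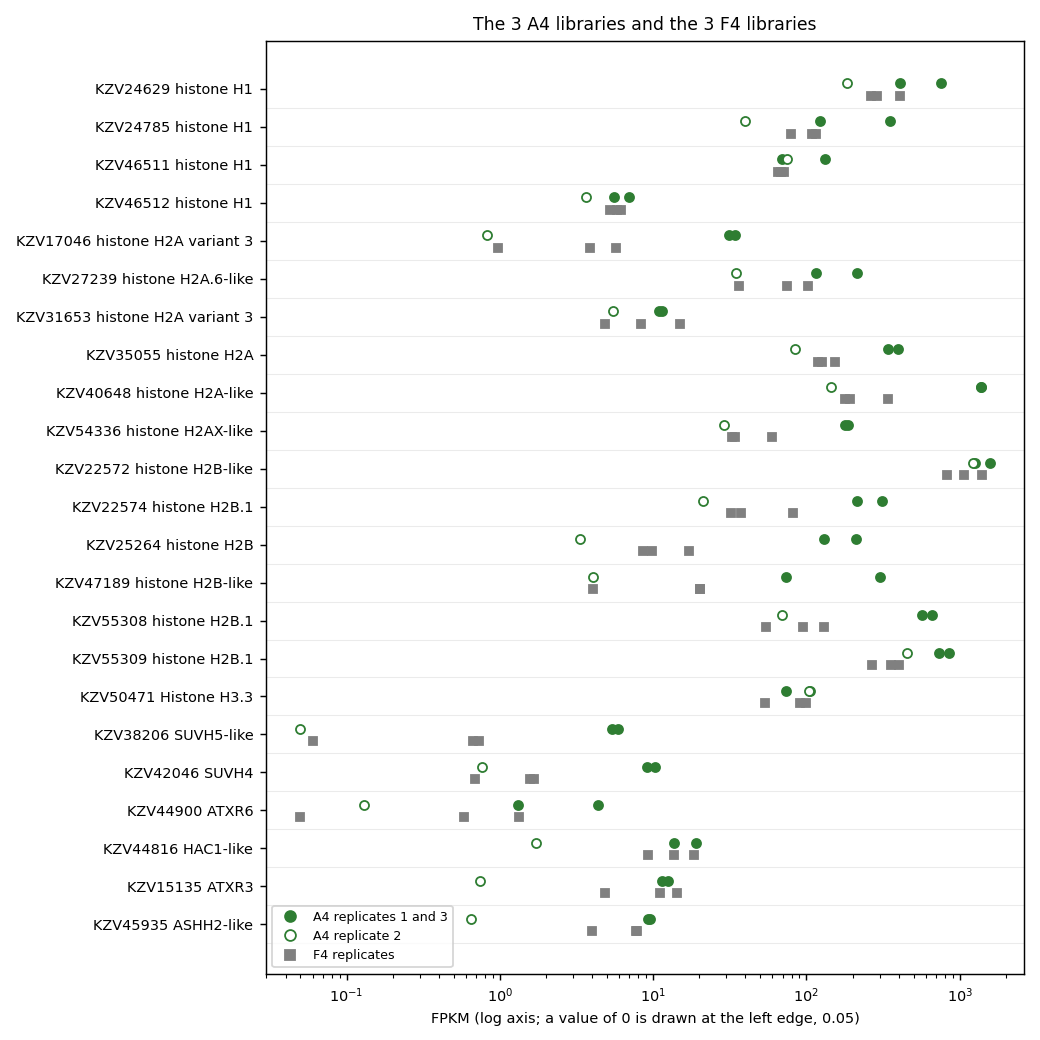
FPKM (log axis) of 17 histone genes and 6 enzyme genes in the A4 libraries (green circles, replicate 2 open) and the F4 libraries (grey squares). The open circle lies left of both filled circles for all 12 H2A and H2B genes, for KZV40648 at 144 FPKM against 1379.6 and 1379.2 FPKM.

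Without A4 replicate 2, 10 members were higher in A4 than in F4 leaves and none lower, where 2.74% of all tested genes were higher and 0.246% lower. The 10 were 7 of the 12 H2A and H2B genes and the methyltransferases KZV44900 (ATXR6, 1.19), KZV42046 (SUVH4, 2.24) and KZV38206 (SUVH5-like, 2.199). The H2A and H2B genes included KZV40648 (2.60, limma adjusted p = 0.0046), KZV55308 (2.78, adjusted p = 0.0032), KZV54336 (2.14) and KZV25264 (3.75). KZV42046 and KZV38206 were named after their values were seen. In the same fit 14 of 39 DNA replication genes and 13 of 19 cell division genes were higher in A4. Against A, 8 members were then higher in A4 and 1 lower (4.84% and 1.63% of all tested genes). The labels give no reason to prefer either the 2 remaining A4 libraries or replicate 2.

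Air-drying of the A4 plants gave the most falls among the histone genes, and these did not rest on replicate 2. KZV35055 had 10.0, 2.45 and 14.0 FPKM in A4D leaves, against 396, 84.5 and 343 FPKM in A4 leaves (-4.77 ± 0.54, limma adjusted p = 1.4e-08). KZV40648 fell to 26.8, 28.9 and 36.02 FPKM in A4D leaves (-4.38 ± 0.62, adjusted p = 7e-07), and KZV55308 to 15.0, 14.0 and 18.0 FPKM (-4.16 ± 0.62, adjusted p = 1.7e-06). KZV51941, the SETD1B-like methyltransferase, had 0.13, 0.41 and 0.18 FPKM in A4D leaves, against 31.9, 2.41 and 24.0 FPKM in A4 leaves (-3.51 ± 0.67), and CLF (KZV39746) had 1.42, 1.39 and 1.09 FPKM, against 17.4, 5.86 and 12.7 FPKM (-2.38 ± 0.34). Without replicate 2, 2 members rose and 46 fell in A4D against A4 (9.25% and 42.2% of all tested genes), among them 14 of the 18 histone genes and 12 of the 13 H3K9-type methyltransferases, and the fall of KZV41491, annotated as HDA14, was lost (-0.66). In the full set 24 of 39 DNA replication genes and 13 of 19 cell division genes fell in A4D against A4, against 7 of 39 and 1 of 19 in F4D against F4, a difference that was not tested.

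Whether acclimation changed the response to rapid drying was tested as the difference between AD against A and FD against F. In 5 members the difference was positive and in 2 negative (4.4% and 4.41% of all tested genes). The 7 called of 79 were thus close to the share called among all tested genes. All 7 were enzymes, as were most of the tested members (61 of 79 with SAP18). KZV15497, annotated as HDA19, had 3.33, 4.81 and 2.97 FPKM in AD leaves, against 0.62, 0.79 and 0.12 FPKM in A leaves, while FD leaves had 0.21, 0.22 and 0 FPKM, against 0.18, 0.38 and 0.99 FPKM in F leaves (difference 2.03 ± 0.45, limma adjusted p = 0.0037). KZV41491, annotated as HDA14, had 10.9, 7.06 and 6.32 FPKM in AD leaves, against 21.3, 26.98 and 43.8 FPKM in A leaves, while FD leaves had 24.6, 19.6 and 14.8 FPKM and overlapped F leaves with 23.1, 19.4 and 17.9 FPKM (difference -1.72 ± 0.41, adjusted p = 0.0058). KZV19229, ATX2-like, had 1.41, 0.88 and 2.42 FPKM in AD leaves, against 0.33, 0.63 and 0.45 FPKM in A leaves, while FD leaves had 0.05, 0.09 and 0.14 FPKM, against 0.79, 0.94 and 1.80 FPKM in F leaves (difference 1.73 ± 0.39, adjusted p = 0.004). These 3 held without any single library. KZV15497 and KZV19229 were low in the AD, A, FD and F libraries, reaching 4.81 and 2.42 FPKM at most there, so the sizes of their differences depend on the pseudocount. KZV20026 (2.03), KZV27384 (1.196) and KZV21120 (-1.25) had adjusted p between 0.028 and 0.032 and lost the call when any 1 of 7, 7 and 6 of the 12 libraries was left out. KZV51898 was also called (adjusted p = 0.034) and lost the call with 10 of the 12 omissions. Since it was listed at 0 in all A and F libraries, the size of its difference depends on the pseudocount. At 4 and 18 weeks the same test called no member (0.00534% and 0.00534% of all tested genes at 4 weeks, 0.512% and 0.288% at 18 weeks), with 1 positive and 3 negative at 4 weeks and 1 positive and 4 negative at 18 weeks at an unadjusted p under 0.05. Without A4 replicate 2 the 4-week test called 1 member, KZV38206 (SUVH5-like, named after its values were seen), at -2.40 (adjusted p = 0.0019), where 0.0534% of all tested genes were positive and 0.801% negative.

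Genes that work with histones were counted from further lists. Each is given for the 7 dryings in the order SD against F, FD against F, AD against A, F4D against F4, A4D against A4, F18D against F18 and A18D against A18, for which 22.1%, 29.1%, 26.2%, 35.9%, 35.5%, 30.2% and 20.6% of all tested genes fell. Of 24 tested chromatin remodelling genes, which move or exchange nucleosomes, 0, 4, 0, 7, 4, 8 and 1 fell and 3, 2, 6, 1, 2, 0 and 1 rose, and in A against SD 11 fell and none rose (14.5% and 20.4% of all tested genes). Of 17 tested histone demethylases, which remove the methyl groups, 2, 5, 4, 10, 5, 9 and 2 fell and 1, 2, 2, 1, 2, 1 and 1 rose. Of 39 tested DNA replication genes, 3, 5, 4, 7, 24, 5 and 3 fell and 5, 1, 1, 1, 1, 2 and 1 rose. Without A4 replicate 2, 10 chromatin remodelling genes, 8 demethylases and 27 DNA replication genes fell in A4D against A4 (42.2% of all tested genes). The lists were chosen with earlier results of these data known, and their counts are descriptions.

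Promoter methylation was read in the 2 kb upstream of each coding region, 1 pooled library per group, so no difference has a replicate check and no test is given. In plants DNA is methylated at CG, CHG and CHH sites, where H is any base but G. Values were assigned to genes by the listed locus tag, an assignment that is uncertain for single genes (see the processing below). Of the members, 58 have a promoter in the table and 57 have values in all 12 groups. Their median CG methylation ran between 38.6% and 46.0% over the groups, against 51.9% to 64.2% for the 18186 promoters with values in all 12 groups. In the CHG context the member medians ran between 8.85% and 16.9%, against 41.3% to 52.9%, and in CHH between 8.20% and 16.3%, against 12.4% to 19.1%. A change of at least 20 percentage points in any comparison was found for 13 of 57 members in CG (24.5% of all promoters), 8 in CHG (16.1%) and 1 in CHH (7.12%).

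The largest CG difference was in the promoter of KZV21285, annotated as ASHH1, an H3K36-type methyltransferase, with 82.2% in A18 and 7.2% in F18 leaves. The SUVR1 gene KZV24291 had 0.0% in A18 leaves, against 37.5% in F18 and 71.5% in A leaves. The promoter of KZV22572, the highest histone gene, had 55.5% CG methylation in F18D leaves, against 16.4% in F18 leaves, and 61.8% CHG methylation in F18D leaves, against 24.0% in F18 leaves. KZV39746 (CLF) gave the only CHH difference of this size, 45.5% in A and 24.4% in SD leaves. By contrast, KZV47189, with the widest change in transcript level among the histone genes, had a promoter CG methylation of 0.7% to 9.9% in all 12 groups, and KZV35055, which fell in every drying, had 73.3% to 87.5%.

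**Figure D5:**
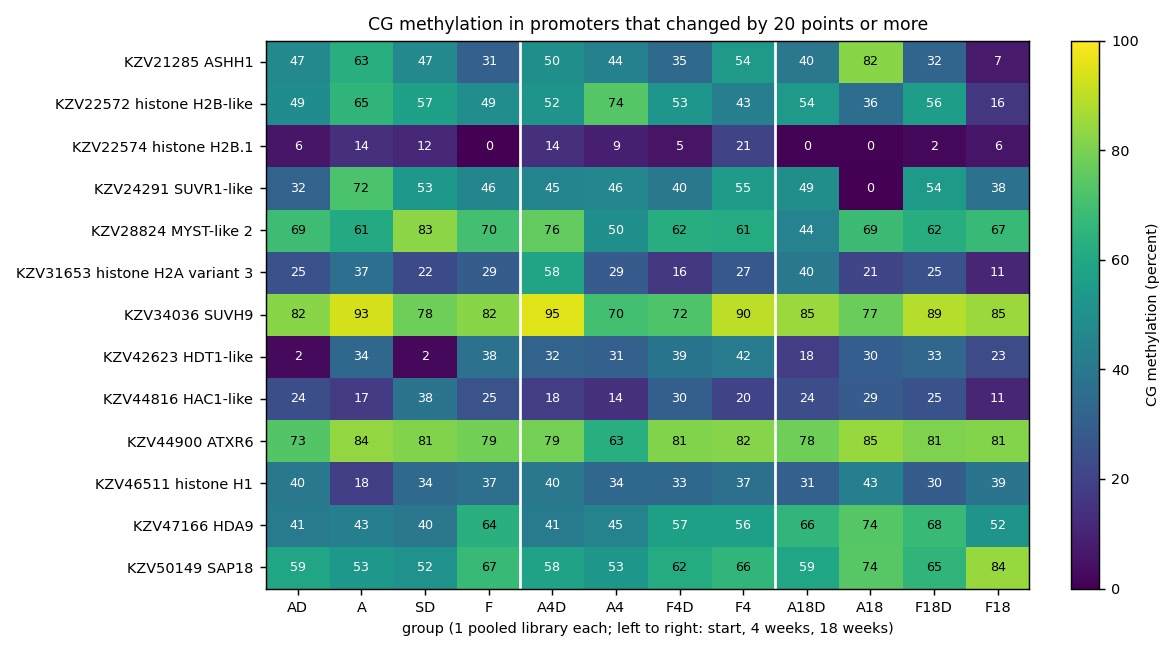
CG methylation (percent) in the promoters of the 13 members with a change of at least 20 percentage points in some comparison, in 12 groups with 1 pooled library each; yellow is high and dark blue low. KZV21285 has 82.2% in A18 and 7.2% in F18 leaves, and KZV24291 has 0.0% in A18 leaves.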

How the data were processed

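Leaf RNA of 13 groups (3 libraries each) was measured by poly(A) RNA-seq with 150-bp paired reads, and pooled leaf DNA of 12 groups by bisulfite sequencing. The authors aligned reads with HISAT, assembled transcripts with StringTie 1.0.4, mapped reads to transcripts with Bowtie2 2.2.5 and deposited FPKM values estimated with RSEM (version: not given in the sources used here). For methylation the authors mapped reads with BSMAP and deposited, for the 2 kb upstream of a coding region, the methylated fraction in each cytosine context, printed here as a percentage. Neither table carries read numbers, so the depth per library, which decides how reliable a low value is, is unknown. RSEM divides reads that match several near-identical genes, and FPKM ties every gene of a library to the library's total. An FPKM column in the methylation tables followed the neighbouring locus tag (correlation with expression 0.847, against 0.074 at the listed tag) and was not used. The methylation values were read at the listed tag, where CG methylation had its most negative correlation with expression, -0.122. At the neighbouring tags it was -0.072 and -0.077. This margin is small, so the assignment of a promoter value to a single gene is uncertain.

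Samples were grouped by their labels. Values were taken as log2(FPKM + 1), a gene was tested if 3 or more libraries reached 1 FPKM (18736 of 26693), and 13 group means were fitted to the 39 libraries together with limma 3.58.1 in R 4.3.3, with a variance trend. P-values were adjusted by Benjamini-Hochberg over all tested genes within a comparison, and a call needed a log2 change of at least 1 and an adjusted p of at most 0.05. The pooling of plants per library makes the libraries separate samples, but nothing says that each came from a separate sowing. The fit was tested on simulated data with known changes. Counts, medians and figures were made with Python 3.11.15, numpy 2.4.6, pandas 2.3.3 and matplotlib 3.10.9. Methylation had 1 library per group and received no test.

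The genes named with values were taken from several sets, and not every gene of these sets is described. The sets were, in each family, the gene with the highest mean, and up to 3 called genes per direction and comparison whose higher group averaged 10 FPKM or more. Further sets were genes whose response differed between acclimated and non-acclimated plants, genes the study names, genes at 0 in a whole group and genes with the largest promoter difference. Genes left undescribed include KZV23072, the methyltransferase with the highest mean, the deacetylase KZV47166, called down in 4 of the 7 dryings, and several low genes at 0 in a whole group. KZV26096, KZV31287, KZV38206, KZV42046 and KZV46512 were added after their values were seen. The members and gene lists were chosen with earlier results of these data known. Text matches inside other words were left out of the lists of DNA replication (4 genes), cell division (3) and dividing-cell markers (29).

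Results were recomputed with median-ratio scaling, with a replicate block, with 0.1 as pseudocount, with all genes kept regardless of level, from only the 6 or 12 libraries a comparison involves, without each replicate number or single library, and with other minimum methylation changes.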

Additional observations from a re-analysis of the deposited data

Results flagged for a closer look

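For 7 of the 79 tested members, all enzyme genes, the response to rapid air-drying differed between acclimated plants (AD against A) and non-acclimated plants (FD against F) by the limma interaction test, 5 with a positive and 2 with a negative difference (4.4% and 4.41% of all tested genes). The differences on the log2(FPKM + 1) scale were 2.0273 for KZV20026 (SUVH6-like), 2.0256 for KZV15497 (HDA19), 1.7330 for KZV19229 (ATX2-like), 1.6153 for KZV51898 (GCN5-like), 1.1962 for KZV27384 (SUVH1-like), -1.2499 for KZV21120 (HDT1) and -1.7227 for KZV41491 (HDA14). All 7 were called after median-ratio scaling as well, but only KZV15497, KZV19229 and KZV41491 were called whichever single library was left out. The values of KZV51898 rest on libraries listed at 0 in A and F leaves, so the size of its difference depends on the pseudocount. The same holds for KZV15497 and KZV19229, which were low in all 4 groups. KZV21120 had 26.9, 23.7 and 23.9 FPKM in AD leaves, against 39.9, 44.9 and 63.0 FPKM in A leaves, whereas FD leaves had 82.8, 54.7 and 58.6 FPKM, against 43.3, 47.4 and 66.2 FPKM in F leaves. KZV20026 had 5.47, 9.37 and 8.89 FPKM in AD leaves, against 2.61, 1.41 and 2.64 FPKM in A leaves, whereas FD leaves had 1.34, 1.31 and 1.30 FPKM, against 2.85, 1.32 and 3.5 FPKM in F leaves. No cause of these differences was tested.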

How the results depend on the processing

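Numbers of members called in the 18 comparisons and with promoter changes are given here where they moved by more than 1.5 times. Median-ratio scaling gave 6 up and 13 down in FD/F, 8 down in AD/A, 14 down in F4D/F4, 8 up in A4D/A4, 4 down in F18D/F18, 5 up and 4 down in A18D/A18, 0 down in A18/F18, 1 up in F18/F and 2 down in A18/A. Fitting the libraries of a comparison alone gave 2 up in F4D/F4, 1 up in A4D/A4, 1 up in F18D/F18, 0 up in A18D/A18, 0 down in A18/F18, 0 down in F18/F, and 0 up and 0 down in A18/A. Without the filter on low values 0 were down in F18/F. The replicate block also gave 0 down in F18/F and moved no other count of members this far. Replicate numbers did not pair the libraries: correlations of same-numbered libraries ran between -0.43 and 0.337, and in 0 of 15 comparisons were all 3 above 0.1. Changes of at least 10, 5 and 30 percentage points in promoters were found for 36, 49 and 5 members in CG, 19, 35 and 2 in CHG, and 17, 31 and 0 in CHH.

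Leaving out a replicate number or a single library gave 4 to 11 up and 6 to 15 down in SD/F, 2 to 4 up in FD/F, 2 to 4 up in F4D/F4, 1 to 4 up in A4D/A4, 1 to 2 up and 15 to 29 down in F18D/F18, 0 to 2 up in A18D/A18, 7 to 16 up and 7 to 14 down in A/SD, 0 to 10 up and 0 to 1 down in A4/F4, 0 to 2 down in A18/F18, 2 to 6 up and 0 to 1 down in F18/F, 0 to 8 up and 0 to 2 down in A4/A, 0 to 2 up and 0 to 3 down in A18/A, 0 to 5 up and 0 to 2 down in AD/A minus FD/F and 0 to 1 down in A4D/A4 minus F4D/F4.

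None of the 222 called changes of members turned its sign under these alternatives. The uncalled change of KZV47189 in A4D/A4 did, with -0.21 without A4 replicate 2 against 1.42 with it. Of the calls among members, those kept without any single library were 13 of 20 in SD/F, 20 of 23 in FD/F, 14 of 21 in AD/A, 27 of 39 in F4D/F4, 26 of 35 in A4D/A4, 18 of 25 in F18D/F18, 9 of 19 in A18D/A18 and 18 of 25 in A/SD. Read numbers are not in the tables, so a limit of detection cannot be given for genes listed at 0, and methylation differences carry no error.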
